A study of Mus musculus with 14 samples.

Results

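The genes examined here encode proteins that join cells to each other and give epithelial cells an apical and a basal side. They were followed in RNA of the retinal pigment epithelium (RPE), but some, such as Cldn5 and Cldn3, are typical of other tissues named below. All were chosen by name, as genes of junctions and polarity, by a rule that uses no measured value. That rule was written with earlier results of these data known. The list held 40 names, of which Pals1 and Mpp5 are the same gene, so that 39 genes were followed among the 34452 mouse genes with values. All 39 passed the filter on low counts. They comprised 7 cadherins and catenins, 4 nectin and afadin genes, 3 scaffold genes of tight junctions, 6 other membrane genes of tight junctions, 7 claudins, 2 gap junction genes, 6 polarity genes and 4 genes for linkers to actin.

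The RPE is a single layer of pigmented cells between the photoreceptors and the choroid, and its junctions form the outer blood-retinal barrier. In such an epithelium, cadherins and nectins hold neighboring cells together at adherens junctions, where catenins and afadin tie them to actin. Claudins and occludin seal the space between cells at tight junctions and decide which ions and solutes pass, with zonula occludens proteins and cingulin as scaffolds on the inner side. The Crumbs and Par complexes mark the apical domain, and ezrin links actin to the membrane of the apical microvilli that surround the outer segments.

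To compare these genes with and without Nrf2, RPE was collected at postnatal day 20 from 7 rd1 mice (FVB/N), in which a loss of Pde6b function kills the rods. Control eyes had received AAV-Best1-GFP, and Nrf2 eyes, from the same mice, AAV-Best1-GFP together with AAV-Best1-Nrf2, which carries human Nrf2 behind a human Best1 promoter that is active in the RPE. Each group had 7 libraries, named below by group and mouse number. An eye with Nrf2 had thus also received an additional vector, of another capsid (AAV8) than the GFP vector. The retina was peeled away and RNA was taken from the eyecup, so that cells next to the RPE could contribute.

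The total estimated counts per library ranged from 16548349 to 50543008, and values are given as counts per 1e+06 counts (CPM). The lowest total was that of Nrf2 2, where pseudogenes held 2.55% of the counts, against 1.06% to 1.17% in the other libraries. Transcripts of the human vector ranged from 1163 to 8711 CPM in Nrf2 eyes and from 1.12 to 1163 CPM in control eyes. The libraries labelled control 3 and Nrf2 4 had the same vector level, 1163 CPM, and were also alike in markers of neighboring tissue, with 232 and 228 CPM in summed muscle markers and 3180 and 3113 CPM in summed Schwann cell markers. For members and wider-list genes past the test described below, an estimate or its adjusted p is also given without mice 3 and 4. All other values include these mice unless stated, among them the counts of mice by direction, the permutation p and the fit with surface epithelium markers. All 10 RPE markers were detected in every library, and their sum ranged from 10470 to 22370 CPM in control and from 16980 to 23870 CPM in Nrf2 eyes. Ttr weighed on that sum, with means of 3401 CPM in control and 9005 CPM in Nrf2 eyes. Mitf, Otx2 and Tyrp1 also had higher means in Nrf2 eyes, and Rpe65, Rlbp1, Rdh5, Lrat, Pmel and Best1 lower ones. Of the RPE markers, 1 passed the test described below. It was Rpe65, the isomerase gene of the visual cycle, which was lower in Nrf2 eyes (-2.17 on the log2 scale, SE 0.37). Best1 itself was low, at no more than 3.84 CPM. Of the other marker lists only that of cones had members past the test, 2 of 6, both lower. Markers of surface epithelium (keratins, Trp63, Epcam and others of the cornea and conjunctiva) varied far more, from 2255 to 56080 CPM in control and from 2334 to 23240 CPM in Nrf2 eyes. In bulk RNA of this kind, fewer cells of a type and less RNA per cell cannot be told apart.

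Among the 39 genes, Cldn2, for a claudin that forms cation pores, and Cgn, for the scaffold cingulin, were lower in Nrf2 eyes, and Mpp5, for the polarity scaffold Pals1, was higher. No other member had a Benjamini-Hochberg adjusted p (q) under 0.05 when both eyes of each mouse were compared with edgeR. Over all 16289 genes tested the same test called 3.43%, with 2.94% higher and 0.491% lower. The 3 calls among the members were thus 1 higher and 2 lower. At an unadjusted p under 0.05 there were 10 members, against 18.1% of all genes. The fitted log2 fold change (log2FC, Nrf2 minus control) was above 0 in 13 members and below 0 in 26, with a median of -0.29, whereas all tested genes had a median of -0.04.

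**Figure D1:**
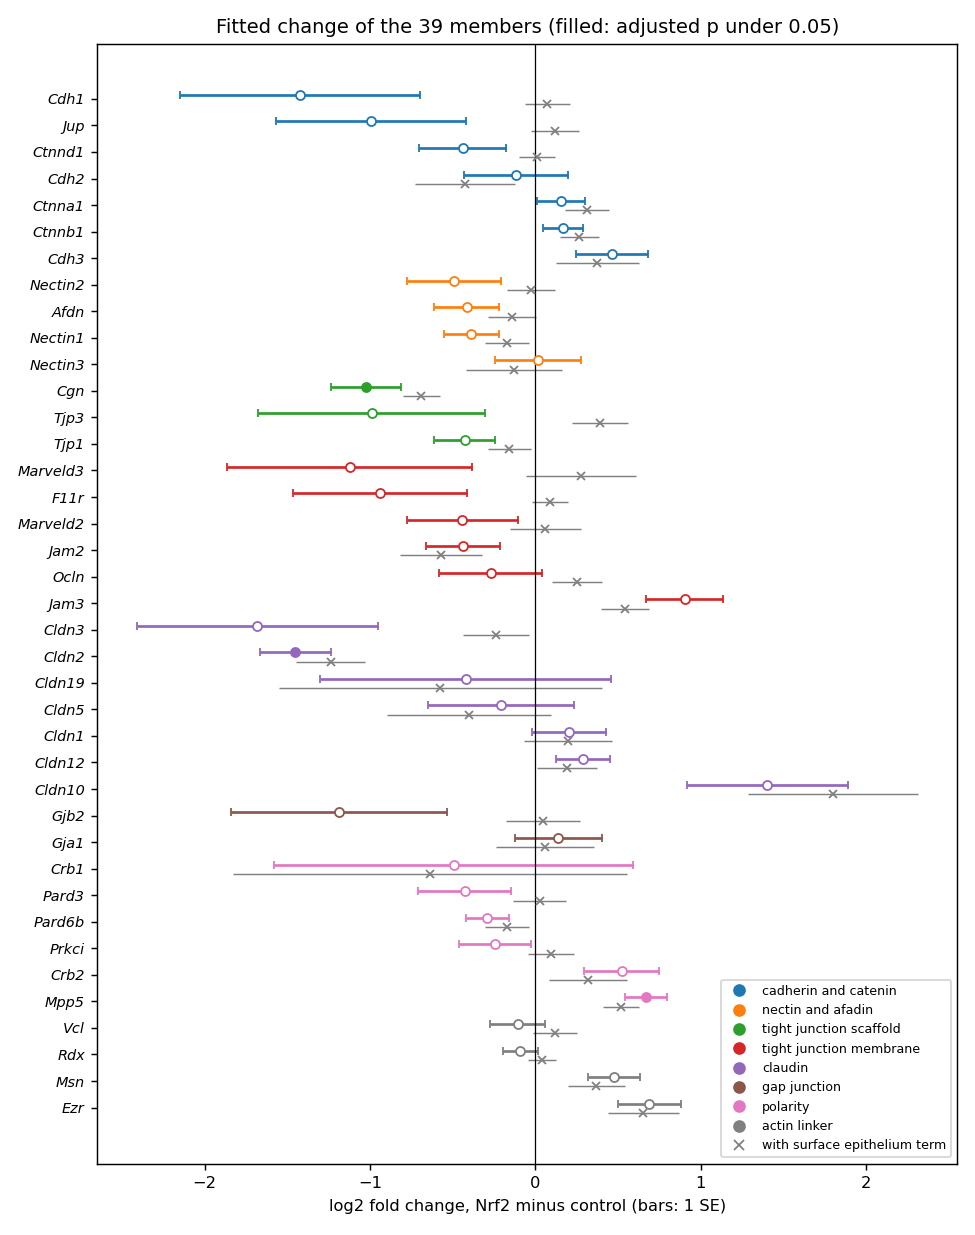
The fitted log2FC (x axis) is drawn for each of the 39 members, colored by class, with bars of 1 SE and filled circles for those past a q of 0.05. Grey crosses give the same quantity from a fit that also holds the surface epithelium level; Cldn2 stays at -1.24, whereas Cdh1 moves from -1.42 to 0.072.

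Claudin 2 makes a tight junction permeable to sodium and water, and its gene (ENSMUSG00000047230, chrX:139800828-139811386, GRCm38, plus strand) had the most pronounced test result of the list. In control eyes Cldn2 ranged from 78.0 to 204 CPM with a median of 151 CPM, and in Nrf2 eyes from 33.7 to 106 CPM with a median of 38.99 CPM. Thus 6 of the Nrf2 libraries lay below every control library, between 33.7 and 40.2 CPM, and the library labelled Nrf2 4 lay among the controls. The mean fell from 140 ± 49.1 to 47.8 ± 25.9 CPM (SD, n = 7). The log2FC was -1.45 (SE 0.21, q 0.0131), and Cldn2 was lower in the Nrf2 eye of 7 of 7 mice, by 0.94 to 2.53 on the log2 scale (exact permutation p over sign flips, two-sided, 0.0156, the smallest that 7 mice allow). Without mice 3 and 4 it was -1.64 (SE 0.24, q 0.0179). With 1 mouse left out at a time, the q of Cldn2 exceeded 0.05 only without mouse 1, at 0.0519.

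Cingulin binds zonula occludens proteins and the actomyosin ring. Its gene, Cgn (ENSMUSG00000068876, chr3:94760069-94786492, minus strand), ranged from 48.7 to 77.7 CPM with a median of 63.6 CPM in control eyes. In Nrf2 eyes it ranged from 19.7 to 49.3 CPM with a median of 25.5 CPM. The groups overlapped only through mouse 4, whose control eye was the lowest of the controls, at 48.7 CPM, and whose Nrf2 eye was the highest of its group, at 49.3 CPM. Cgn fell from a mean of 63.7 ± 11.3 to 29.7 ± 10.5 CPM (SD, n = 7), with a log2FC of -1.02 (SE 0.21, q 0.0372). It was lower in 6 of 7 mice (exact permutation p over sign flips, two-sided, 0.0312). Without mice 3 and 4 the log2FC of Cgn was -1.29 (SE 0.15, q 0.00728). The call was lost without any single mouse other than mouse 4, with a q of up to 0.133.

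The sequences before the annotated start sites of Cldn2, of Cgn and of Ezr, which is described below, are shown because Cldn2 and Cgn passed the threshold and Ezr, which did not, was higher in the Nrf2 eye of 7 of 7 mice. Ezr was picked after its values were seen. No promoter entry was matched by name for Mpp5, which also passed. The promoter of Pard6b, which was lower in 7 of 7 mice, is described by its motif only. The printed sequences are the 250 bases upstream of each start in RefSeq (GRCm38.p6), at chrX:139800558-139800807 (plus strand) for Cldn2, chr3:94786483-94786732 (minus strand) for Cgn and chr17:6782781-6783030 (minus strand) for Ezr. Capitals mark a TATA element (TATAAA) in Cldn2 and an AP-1 element (TGANTCA) in Ezr.
Cldn2: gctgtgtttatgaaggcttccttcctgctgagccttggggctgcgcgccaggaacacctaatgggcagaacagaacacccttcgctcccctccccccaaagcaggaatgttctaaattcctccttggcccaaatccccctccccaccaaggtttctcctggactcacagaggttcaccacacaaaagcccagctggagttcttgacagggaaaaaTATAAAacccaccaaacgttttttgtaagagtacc
Cgn: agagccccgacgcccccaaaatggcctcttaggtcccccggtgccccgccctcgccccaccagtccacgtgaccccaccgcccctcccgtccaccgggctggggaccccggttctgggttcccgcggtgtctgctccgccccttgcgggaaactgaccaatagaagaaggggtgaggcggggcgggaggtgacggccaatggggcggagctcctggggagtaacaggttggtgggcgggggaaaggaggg
Ezr: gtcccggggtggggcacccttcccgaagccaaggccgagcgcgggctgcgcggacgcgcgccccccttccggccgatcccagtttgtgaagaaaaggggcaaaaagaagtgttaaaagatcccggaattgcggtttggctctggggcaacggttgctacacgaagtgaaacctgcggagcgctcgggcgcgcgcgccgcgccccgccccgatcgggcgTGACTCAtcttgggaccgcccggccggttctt

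The Cldn2 sequence had a GC content of 52.0%, close to the median of 52.4% over 32851 promoters, and its TATA element began at position -35. Those of Cgn and Ezr were richer in GC, at 70.4% and 67.2%. The AP-1 element of Ezr began at position -32. Over all promoters, TATAAA on either strand was found in 12.4% and TGANTCA in 6.75%. The core of the antioxidant response element to which Nrf2 binds with small Maf proteins (TGACNNNGC, both strands) was not in these 3 windows. It was found in 3 of 41 promoters of the 30 members with an entry (Ctnnb1, Nectin2 and Pard6b), and in 10.2% of all promoters. That of Pard6b began at position -155. Such matches describe the letters only.

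The Crumbs complex, made of a Crumbs protein, Pals1 and Patj, sets the apical border next to the junctions. Mpp5, which encodes Pals1 (ENSMUSG00000021112, chr12:78748907-78840714, plus strand), ranged from 51.1 to 67.5 CPM with a median of 57.7 CPM in control eyes and from 54.5 to 100.8 CPM with a median of 87.8 CPM in Nrf2 eyes. All Nrf2 libraries except Nrf2 4, at 54.5 CPM, lay above the highest control library. The mean of Mpp5 rose from 58.1 ± 6.01 to 85.3 ± 14.9 CPM (SD, n = 7), a log2FC of 0.67 (SE 0.13, q 0.0281). Mpp5 was higher in 6 of 7 mice (exact permutation p over sign flips, two-sided, 0.0312). Its log2FC was 0.75 (SE 0.12, q 0.0253) without mice 3 and 4. Without any single mouse other than mouse 4 the q of Mpp5 was above 0.05, reaching 0.113, and it was 0.0607 with no filter on low counts.

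Patj, for the partner of Pals1, is not on the list of members but on a wider list of junction genes described below, and it was also higher in Nrf2 eyes. It ranged from 47.1 to 71.1 CPM in control and from 63.8 to 88.9 CPM in Nrf2 eyes. The groups overlapped, while both eyes of each mouse differed in the same direction in 7 of 7 mice. Patj had a log2FC of 0.51 (SE 0.11, q 0.0427), which was 0.49 (SE 0.13, q 0.0743) without mice 3 and 4. With single mice left out Patj passed only without mouse 4, with a q of up to 0.139, and with no filter its q was 0.0873.

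The Crumbs genes themselves did not pass. Crb2, for the Crumbs protein that RPE and photoreceptors share, was at 21.5 to 48.0 CPM in control and 26.2 to 57.1 CPM in Nrf2 eyes, with a log2FC of 0.52 (SE 0.23, q 0.28). Crb1, the Crumbs gene whose mutations cause human retinal dystrophies, spread more widely within each group than between them. It ranged from 0.589 to 61.9 CPM with a median of 36.8 CPM in control and from 3.94 to 44.96 CPM with a median of 30.1 CPM in Nrf2 eyes (log2FC -0.50, SE 1.09, q 0.85). The control 6, Nrf2 5, Nrf2 1 and Nrf2 3 libraries held the lowest levels of Crb1, below 10 CPM, and all other libraries were above that.

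The Par complex of Pard3, Pard6b and the kinase gene Prkci marks the border between the apical and lateral membranes. Pard6b, for its adaptor, was slightly lower in the Nrf2 eye of 7 of 7 mice, by 0.05 to 0.88 on the log2 scale. It was not among the genes named in advance for a detailed account. With 7 of 7 mice in 1 direction the exact permutation p over sign flips (two-sided) is fixed at 0.0156, so that it adds nothing to that count. How many of all genes had 7 of 7 mice in 1 direction was not counted. The levels of Pard6b were 70.3 to 95.9 CPM in control and 39.2 to 77.0 CPM in Nrf2 eyes. In the fit over all genes the log2FC of Pard6b was -0.29 (SE 0.13, q 0.29), so that it did not pass. For Pard3, the scaffold, and Prkci, the log2FCs were -0.43 (SE 0.28, q 0.45) and -0.25 (SE 0.22, q 0.58).

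Ezrin, moesin and radixin attach actin filaments to the plasma membrane, and ezrin is the form that fills the microvilli of the RPE. Ezr (ENSMUSG00000052397, chr17:6738041-6782784, minus strand) ranged from 593 to 926 CPM with a median of 806 CPM in control eyes and from 855 to 1468 CPM with a median of 1147 CPM in Nrf2 eyes. Every mouse had more of it in its Nrf2 eye, by 0.095 to 0.95 on the log2 scale (exact permutation p over sign flips, two-sided, 0.0156, the smallest possible). The overlap between groups came from the library labelled Nrf2 4, at 855 CPM, which control 2, control 3 and control 6 exceeded.

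The mean of Ezr was 793 ± 107 CPM in control and 1181 ± 245 CPM in Nrf2 eyes (SD, n = 7), with a log2FC of 0.69 (SE 0.19, q 0.0942), which missed the threshold. It passed in 4 other fits, those without the mouse block (q 0.0250), with DESeq2 (0.00609), with voom (0.00445) and without mouse 4 (0.0475), but not without mice 3 and 4 (0.15). Msn, for moesin, had 138 ± 33.5 CPM in control and 173 ± 28.7 CPM in Nrf2 eyes (SD, n = 7), with a log2FC of 0.48 (SE 0.16, q 0.16). Rdx, for radixin, and Vcl, for vinculin, which anchors actin at junctions under tension, had log2FCs of -0.09 (SE 0.11, q 0.68) and -0.11 (SE 0.17, q 0.78). Vcl ranged from 80.2 to 157 CPM in control and from 74.6 to 136 CPM in Nrf2 eyes, so that the groups overlapped over most of their range.

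**Figure D2:**
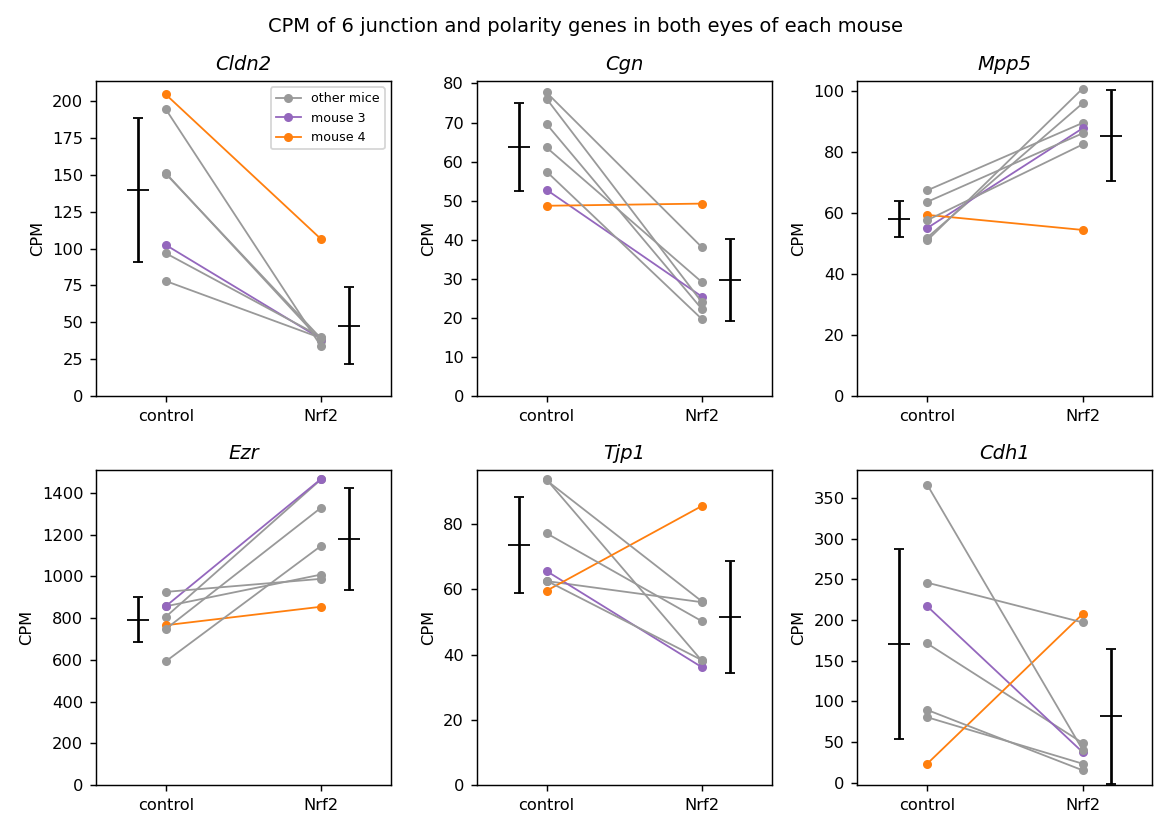
CPM (y axis) of 6 members are plotted for the control and the Nrf2 eye of each mouse, joined by a line, with mice 3 and 4 in color and the mean with its SD (n = 7) beside each group. In Cgn, Mpp5, Tjp1 and Cdh1 the line of mouse 4 runs against the others or is flat, whereas Cldn2 falls and Ezr is higher in 7 of 7 mice.

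Junctional adhesion molecules are immunoglobulin proteins near the tight junction that recruit the Par complex. Jam3 ranged from 40.0 to 130 CPM with a median of 72.3 CPM in control eyes and from 77.2 to 149 CPM with a median of 131 CPM in Nrf2 eyes. It was higher in 6 of 7 mice, with mouse 4 the exception, with a difference of -0.75 on the log2 scale. The log2FC of Jam3 was 0.90 (SE 0.23, q 0.0789), and without mice 3 and 4 it was 1.16 (SE 0.14, q 0.00968). Jam2, a relative that is also made by endothelium, had a log2FC of -0.44 (SE 0.22, q 0.34). F11r, for the epithelial form JAM-A, is described with the genes that were highest in control 6.

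Of 39 members, 15 had their highest control level in control 6 and their lowest in control 4, the libraries with the most and the least surface epithelium markers. They were Cdh1, Ctnna1, Ctnnd1, Jup, Nectin1, Nectin2, Afdn, Tjp3, Ocln, Marveld2, Marveld3, F11r, Cldn3, Gjb2 and Pard3. Among all tested genes, 11.4% had that order. The lowest control level was in control 6 for 12 of 39 members (30.8%) and for 34.6% of all tested genes. Between these libraries the summed markers were 2255 CPM in control 4 and 56080 CPM in control 6. In the same libraries Cldn3 had 13.1 and 177 CPM and Cdh1 23.3 and 367 CPM, a direction that the choice of the 15 genes fixed. In the 5 control libraries in between, which the choice did not use, the order of the markers from low to high was control 1, 7, 3, 2 and 5. That order was kept by 7 of the 15 (Jup, Nectin2, Ocln, Marveld3, F11r, Cldn3 and Gjb2), and by 15.6% of the 1860 tested genes chosen in the same way. This count was added after the data were seen.

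Epithelial cadherin, encoded by Cdh1 (ENSMUSG00000000303, chr8:106603351-106670246, plus strand), is the classical adhesion protein of surface epithelia, while P-cadherin (Cdh3) prevails in mouse RPE. Cdh1 ranged from 23.3 to 367 CPM with a median of 171 CPM in control eyes and from 15.3 to 207 CPM with a median of 40.6 CPM in Nrf2 eyes. It was lower in 6 of 7 Nrf2 eyes and higher in that of mouse 4, and its log2FC of -1.42 had an SE of 0.72 (q 0.34). Surface epithelium markers moved the same way: their sum was lower in the Nrf2 eye of 6 mice and higher in that of mouse 4, where it stood at 2255 CPM in the control and 23020 CPM in the Nrf2 eye. Of the 10 markers, 10 had a negative log2FC, from -2.13 to -0.65 with a median of -1.30, 0 passed the threshold with edgeR (2 had an unadjusted p under 0.05), and none was at 0 in any library.

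**Figure D3:**
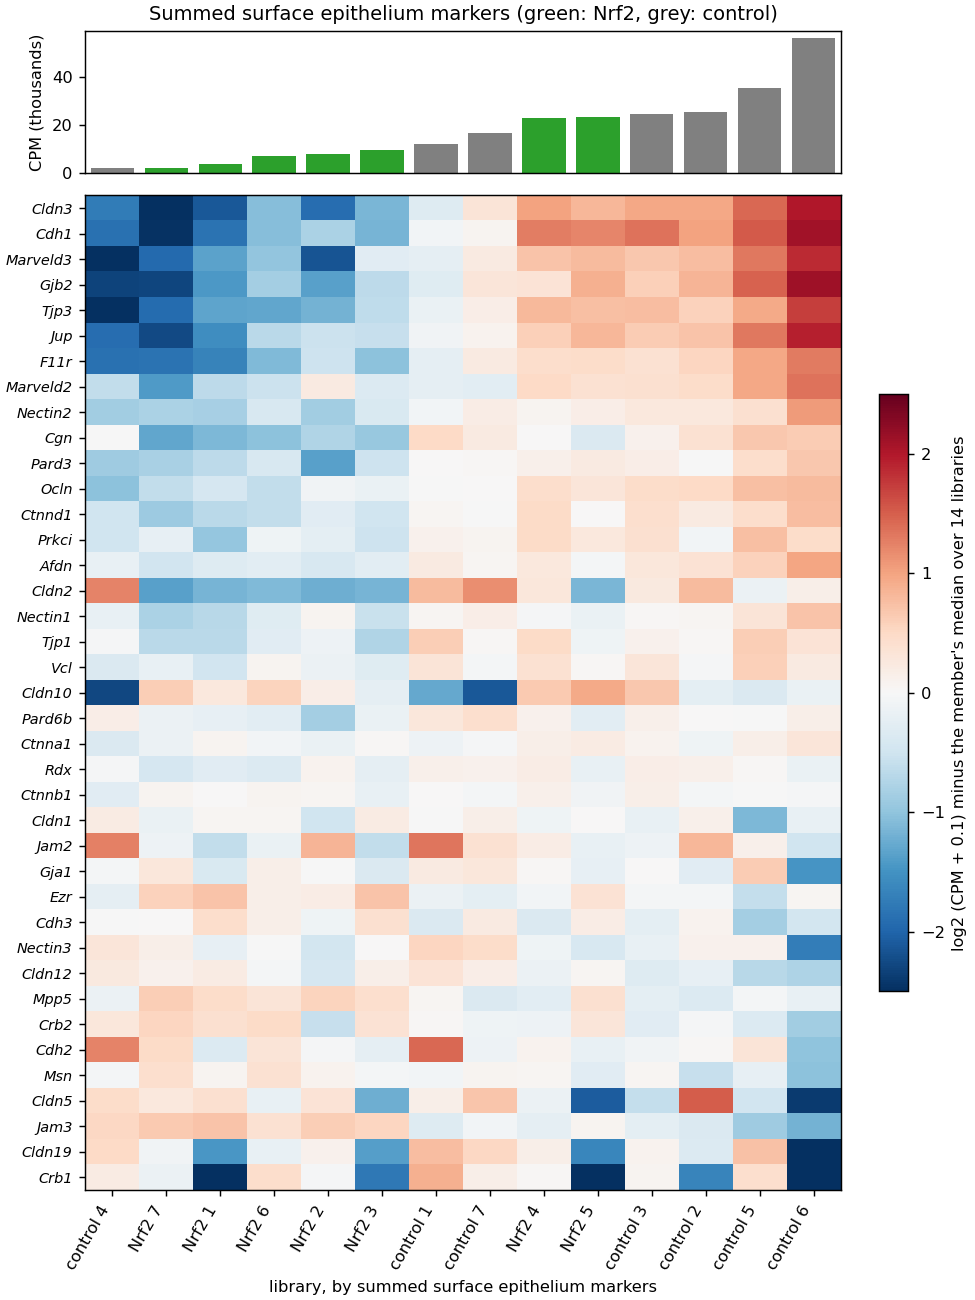
Upper panel, the summed CPM of 10 surface epithelium markers in each library, which orders the libraries from left to right, with Nrf2 in green and control in grey. Lower panel, log2 (CPM + 0.1) of each member minus its median over the 14 libraries, with members sorted by the difference between the right and left ends. Cldn3, Cdh1, Marveld3, Gjb2, Tjp3, Jup and F11r rise from left to right, while Cldn19 and Crb1 are lowest in control 6. Among controls, 34.6% of all tested genes were lowest in control 6.

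When the mean log2 level of these markers was added as a term to the paired fit, an alternative chosen after the data were seen, the estimate for Cdh1 became 0.072 (SE 0.14, q 0.88). Its SE had been 0.72 without the term. For the 15 members as a set, the log2FCs went from a range of -1.68 to 0.16 (median -0.49) to one of -0.24 to 0.39 (median 0.06), and the median SE from 0.34 to 0.15. Control 6 and control 4, on which these 15 were chosen, are part of both fits, so that this shift is a description. In this fit Cldn2 remained lower (-1.24, SE 0.21, q 0.0318) and so did Cgn (-0.69, SE 0.11, q 0.0291). Mpp5 had 0.52 (SE 0.11, q 0.0700), which no longer passed. The fit called 1.42% of all genes. Because the marker level itself differed between the groups, with a negative log2FC in all 10 markers, treatment and surface epithelium were not independent in this fit.

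Jup, for plakoglobin of desmosomes and adherens junctions, ranged from 77.5 to 1125 CPM with a median of 452 CPM in control and from 60.7 to 516 CPM with a median of 197 CPM in Nrf2 eyes. Cldn3, a sealing claudin of surface and gland epithelia, had the largest negative estimate of the list, -1.68 (SE 0.73, q 0.27), and -0.24 (SE 0.20, q 0.67) with the marker term. Estimates for Tjp3, a zonula occludens protein, Marveld3, a relative of occludin, and F11r were -0.99 (SE 0.69), -1.12 (SE 0.74) and -0.94 (SE 0.52), and became 0.39 (SE 0.17), 0.28 (SE 0.33) and 0.088 (SE 0.11) with it. Jup, Cldn3, Tjp3, Marveld3 and F11r passed in neither fit.

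**Figure D4:**
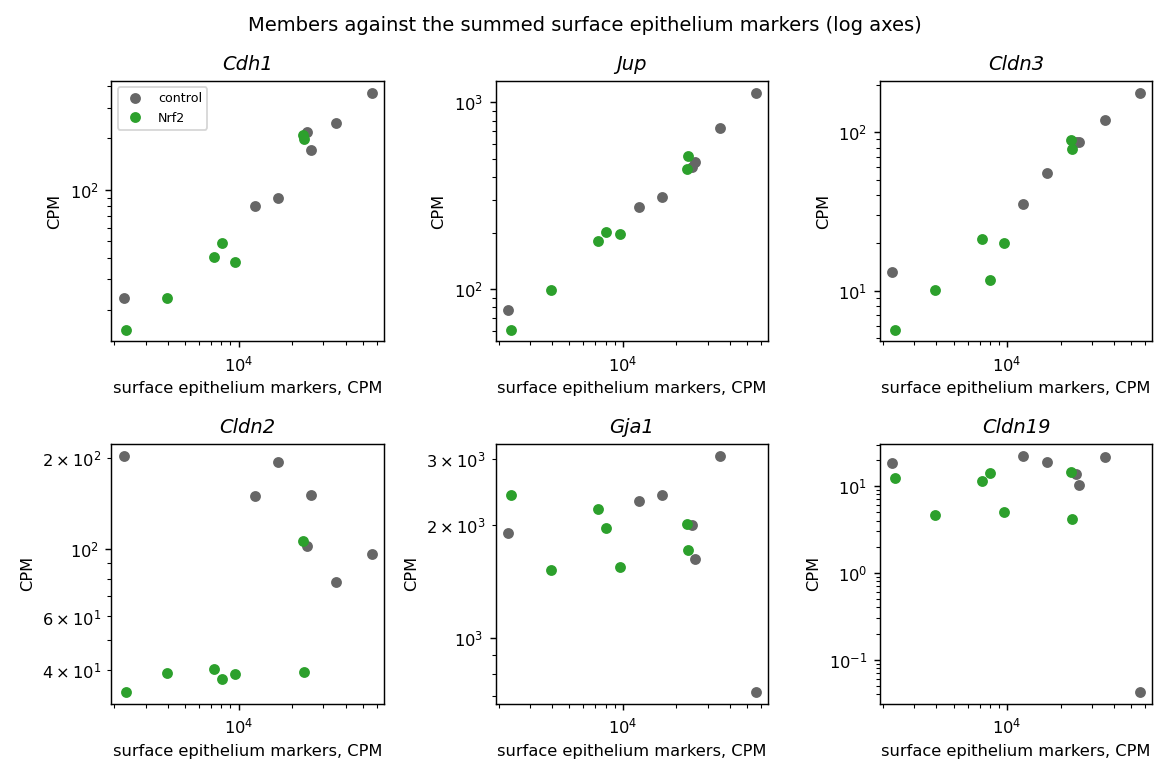
CPM of 6 members (y axis, log) against the summed CPM of the surface epithelium markers (x axis, log), with 1 point per library, control in grey and Nrf2 in green. Cdh1, Jup and Cldn3 climb along the x axis in both groups, and Cldn2 lies at 33.7 to 40.2 CPM in 6 Nrf2 libraries at any marker level. Gja1 and Cldn19 have their lowest value in control 6, which was the lowest control library for 34.6% of all tested genes.

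Of the remaining cadherins and catenins none passed. Cdh3, whose human mutations cause macular dystrophy with loss of hair, ranged from 84.7 to 178 CPM with a median of 128.2 CPM in control and from 119 to 208 CPM with a median of 169 CPM in Nrf2 eyes. The groups overlapped, and Cdh3 was higher in 4 of 7 mice (log2FC 0.47, SE 0.22, q 0.31). Cdh2, for N-cadherin, ranged from 12.8 to 70.1 CPM in control and from 20.3 to 36.1 CPM in Nrf2 eyes, with its highest levels in control 1 and control 4. These libraries also had the highest sums of cone markers, 817 and 922 CPM, and of rod markers, 519 and 400 CPM, and the part of retinal RNA in Cdh2 was not tested. Its log2FC was -0.12 (SE 0.32, q 0.88).

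Ctnnb1, for beta-catenin, which links cadherins to alpha-catenin, varied little between libraries. It ranged from 416 to 564 CPM with a median of 499 CPM in control and from 444 to 553 CPM with a median of 526 CPM in Nrf2 eyes, so that one range held the other. Its log2FC was 0.17 (SE 0.12, q 0.49). Ctnna1, for alpha-catenin, stood at 453 ± 66.5 and 458 ± 44.1 CPM (SD, n = 7), with 0.16 (SE 0.15, q 0.61). Ctnnd1, for p120-catenin, which keeps cadherins at the surface, had -0.44 (SE 0.26, q 0.41).

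Nectins start cell contacts and bind afadin (Afdn) on the inner side of the membrane. The log2FCs were -0.39 (SE 0.17, q 0.27) for Nectin1, -0.49 (SE 0.29, q 0.40) for Nectin2 and 0.02 (SE 0.26, q 0.98) for Nectin3. That of Afdn was -0.42 (SE 0.20, q 0.31), and its levels were 65.5 to 147 CPM in control and 53.0 to 88.6 CPM in Nrf2 eyes. Nectin1, Nectin2 and Afdn were highest in control 6 and lowest in control 4, whereas Nectin3 had its lowest control level, 30.9 CPM, in control 6.

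Zonula occludens 1, the product of Tjp1, ties claudins and occludin to actin. Tjp1 ranged from 59.6 to 93.8 CPM with a median of 65.7 CPM in control and from 36.1 to 85.6 CPM with a median of 50.3 CPM in Nrf2 eyes. It was lower in 6 of 7 mice (exact permutation p over sign flips, two-sided, 0.0469), and the exception was mouse 4, whose Nrf2 eye held the highest level of its group. The log2FC of Tjp1 was -0.43 (SE 0.18, q 0.27). It passed with voom (q 0.0198) and without mouse 4 (-0.61, SE 0.11, q 0.0125), but not without mice 3 and 4 (q 0.0517). Ocln, for occludin, ranged from 20.5 to 72.7 CPM with a median of 57.5 CPM in control and from 27.2 to 57.0 CPM with a median of 37.4 CPM in Nrf2 eyes (log2FC -0.27, SE 0.31, q 0.68). Marveld2, for tricellulin at corners where 3 cells meet, had -0.44 (SE 0.34, q 0.52).

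The other claudins did not pass. Cldn1, the highest per length among the member claudins, was at 235 to 590 CPM in control and 362 to 589 CPM in Nrf2 eyes. Its log2FC was 0.20 (SE 0.23, q 0.67). Cldn7, which is on the wider list described below, was higher per length in control eyes, at 126 CPM per kb. Cldn19, the main claudin of human RPE, ranged from 0.0421 CPM (1 count) to 22.4 CPM with a median of 18.5 CPM in control and from 4.19 to 14.5 CPM with a median of 11.5 CPM in Nrf2 eyes. It was lowest in control 6, Nrf2 5, Nrf2 1 and Nrf2 3, the same 4 libraries that were lowest in Crb1. The log2FC of Cldn19 was -0.42 (SE 0.88, q 0.84), and 2 of 7 mice went up.

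Cldn10, for an ion pore claudin, was a low gene, at 1.87 to 15.1 CPM in control and 8.07 to 18.5 CPM in Nrf2 eyes. It was higher in 6 of 7 mice, with a log2FC of 1.40 (SE 0.49, q 0.18), and passed in DESeq2 (q 0.0153). Cldn5, the claudin of the endothelium, stayed at or below 17.2 CPM in all libraries (log2FC -0.21, SE 0.44, q 0.84), and summed endothelial markers ranged from 64.0 to 350 CPM in control and from 86.1 to 228 CPM in Nrf2 eyes. Both Cldn5 and that sum were highest in control 2 and lowest in control 6 among control eyes. Cldn12 had 0.29 (SE 0.16, q 0.39).

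Gap junctions let ions and small molecules pass between cells, and connexin 43 (Gja1) is their main protein in RPE. Gja1 ranged from 717 to 3066 CPM with a median of 1997 CPM in control and from 1516 to 2409 CPM with a median of 1962 CPM in Nrf2 eyes. The Nrf2 libraries lay inside the range of the controls, and 4 of 7 mice were higher (log2FC 0.14, SE 0.26, q 0.82). The lowest level of Gja1 was in control 6, where the pigment gene Pmel also had its lowest level, 1823 CPM. Among controls, 34.6% of all tested genes were lowest in that library. Of the other RPE markers, Tyrp1 and Mitf were lowest among controls in control 6. Rpe65, Rlbp1, Lrat, Rdh5, Ttr and Otx2 were lowest in control 5, where Gja1 was highest, and Best1 was lowest in control 4. Gjb2, for connexin 26, followed surface epithelium, from 3.96 to 86.9 CPM in control and from 3.98 to 37.1 CPM in Nrf2 eyes, with a log2FC of -1.19 (SE 0.65, q 0.37) and of 0.047 (SE 0.22, q 0.96) with the marker term.

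Levels of different genes were compared per kilobase of exon in control eyes, as CPM per kb. Ezr was the highest member at 241 ± 32.6 CPM per kb (SD, n = 7), followed by Gja1 at 196 ± 71.2, a difference within the spread of Gja1. Cldn1 came next at 99.6 ± 25.2 and Ctnnb1 at 95.9 ± 8.44 CPM per kb, which did not differ beyond their spread. Cldn2 was the ninth at 42.0 ± 14.8 CPM per kb in control eyes and stood at 14.4 ± 7.78 CPM per kb in Nrf2 eyes. The lowest members were Cldn19 at 3.55 ± 1.85, Cldn10 at 2.58 ± 1.79 and Crb1 at 2.25 ± 1.43 CPM per kb.

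How far these results rest on the 2 libraries in doubt was asked by leaving out mice. Without mice 3 and 4, 5 members passed, with Jam3 and Mpp5 higher and Cgn, Cldn2 and Cldn3 lower, where 4.5% of all genes were called, 2.97% higher and 1.53% lower. Without mouse 4 alone, 18 members passed, 3 higher (Ezr, Jam3 and Mpp5) and 15 lower, where 12.2% of all genes were called, 5.99% higher and 6.25% lower. Of those 18, 11 belonged to the 15 that were highest in control 6 and lowest in control 4. Cdh1 for example had -1.92 (SE 0.37, q 0.0158) without mouse 4. The median log2FC of those 15 was -0.81 without mice 3 and 4, where 1 of them passed. Without each of the other mice, 0 (mouse 1) or 1 member (Cldn2, for mice 2, 3, 5, 6 and 7) passed.

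In the other fits the members called were read against the share of all genes called. These were 5 members against 6.75% without the mouse block (Ezr and Jam3 in addition), 3 against 3.38% with RLE normalization, 3 against 2.93% with upper-quartile normalization and 3 against 3.14% with a filter on the mean count. There were 7 members against 10.3% with DESeq2, which added Ezr, Jam3, Cldn10 and Cldn3. With voom there were 9 against 15.9%, which added Ezr, Jam3, Cdh3, Crb2, Nectin1 and Tjp1. With no filter there were 2, Cldn2 and Cgn, against 1.19%. For single mice left out, all genes were called at 0.881% without mouse 1, 2.39% without mouse 2, 1.01% without mouse 3, 0.95% without mouse 5, 1.47% without mouse 6 and 0.681% without mouse 7.

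With all mice, the CPM of the groups did not separate in any of the 39 members, against 1.79% of all genes. Without mice 3 and 4 the groups were separate in 9 members (Afdn, Tjp1, Cgn, Jam3, Cldn2, Cldn10, Mpp5, Pard6b and Ezr), where 9.41% of all genes were.

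A wider list of 131 other junction and polarity genes was compared in the same fit, of which 116 passed the filter. Of these, 4 were higher in Nrf2 eyes (Panx1, Gjb1, Patj and Clic4) and 0 were lower, beside 3.43% of all genes, while 21 had an unadjusted p under 0.05, beside 18.1% of all genes, so that neither count stood apart from the background. The median log2FC was -0.20. Panx1, for pannexin 1, a channel that releases ATP rather than joining cells, ranged from 9.02 to 48.5 CPM with a median of 15.4 CPM in control and from 38.2 to 299 CPM with a median of 169 CPM in Nrf2 eyes. The groups overlapped only where the library labelled control 3, at 48.5 CPM, exceeded the library labelled Nrf2 4, at 38.2 CPM. Its log2FC was 3.41 (SE 0.44, q 0.00996), and 3.94 (SE 0.37, q 0.00382) without mice 3 and 4.

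Gjb1, for connexin 32, was scarce, at 0.267 to 1.78 CPM in control and 1.72 to 6.89 CPM in Nrf2 eyes, and the difference was 2.61 on the log2 scale (SE 0.50, q 0.0288), higher in 7 of 7 mice. It rested on 8 to 59 counts per control library. Without mice 3 and 4 the q of Gjb1 was 0.0501, and with single mice left out it passed only without mouse 4, with a q of up to 0.0959. With the surface epithelium term the q of Gjb1 was 0.0930. Clic4, for an intracellular chloride channel protein of RPE microvilli, had 77.4 ± 16.02 CPM in control and 103 ± 9.02 CPM in Nrf2 eyes (SD, n = 7), with a log2FC of 0.56 (SE 0.12, q 0.0461). The call of Clic4 was lost without mice 3 and 4 (q 0.0711), without any single mouse other than mouse 4 (up to 0.158), with upper-quartile scaling (0.0564), with the filter on the mean count (0.0535), with no filter (0.106) and with the surface epithelium term (0.146). Of 11 tested desmosome genes 10 had a negative estimate, with a median of -1.09, and 0 passed with edgeR, where 0 also had an unadjusted p under 0.05, nor did any with DESeq2 or voom. Without mouse 4, 9 of them passed as lower (Dsc2, Dsc3, Dsg2, Dsg3, Evpl, Perp, Pkp1, Pkp3 and Ppl), where 6.25% of all genes were called lower. These 9 and Dsp were highest in control 6 and lowest in control 4 among controls, while Pkp2 had the reverse order. Without mice 3 and 4 there were 3 (Dsg3, Pkp1 and Ppl), where 1.53% of all genes were called lower. With the surface epithelium term Dsc3 passed as higher, where 1.42% of all genes were called. Of 32 further polarity genes 26 had a negative estimate, with a median of -0.23, and 0 passed with edgeR. An unadjusted p under 0.05 was found for 5 of them, and DESeq2 called Lin7a and Prickle1 lower and voom Lin7a and Vangl2.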

How the data were processed

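RPE RNA of 14 eyes was amplified with a low-input kit and sequenced in 2 runs, whose libraries the labels do not name. Per the methods of the study, reads were checked with FastQC, aligned to mm10 with Ensembl 91 annotation by STAR and, in parallel, quantified with Salmon 0.9.1, whose sums per gene went into DESeq2. What the authors deposited is a table of estimated counts, in whole numbers and unscaled. That they stem from Salmon was inferred from the rows, 21751 protein-coding genes and 12145 pseudogenes out of 34453. Salmon assigns reads that match several similar genes by a model, so that such genes are uncertain. A further row held human NFE2L2 of the vector and was never counted among genes called.

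The main model, run in R 4.3.3 with edgeR 4.0.16 (quasi-likelihood), held a term for each mouse and one for Nrf2. Genes were kept by filterByExpr (minimum count 10) and libraries scaled by TMM. The Benjamini-Hochberg adjustment covered 16289 genes, and an adjusted p (q) under 0.05 was called. SE were derived from the F statistic. The fit had 6 residual degrees of freedom, and 2.68 came from the prior. The pairing comes from the labels, which give both eyes of an animal 1 number. After subtraction of group means, the correlation between both eyes was -0.01, 0.12, 0.07, -0.37, 0.35, -0.18 and 0.16 in mice 1 to 7 over 14178 genes. For single genes, the signs of the 7 differences in log2 CPM (with 2 as prior count) were permuted exactly in all 128 ways. These differences and the counts of mice by direction were not scaled by TMM, unlike the fit. Ctnna1, for example, was lower in 4 of 7 mice but had a fitted log2FC of 0.16. The direction of differences near 0, such as -0.049 for Pard6b in mouse 4, depends on this scaling. The methods of the study speak of fewer pairs than the 7 that the labels and the table hold, and do not say which pair was left out. All 7 were used here, and p-values measure the spread among these mice. The pipeline was tested on simulated counts. Alternatives were a model with no mouse term, scaling by RLE or upper quartile, voom with sample weights in limma 3.58.1, DESeq2 1.42.0, other filters, a threshold of 0.10, mice left out and, chosen after the data were seen, a term for the mean log2 CPM of 10 surface epithelium markers.

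The members and lists were chosen with earlier results of these data known. All members were accounted for. Given with the range of their libraries were members past the threshold and Cdh1, Cdh3, Cdh2, Tjp1, Ocln, Cldn19, Ctnnb1, Gja1, Crb1, Ezr and Vcl, and others were named with shorter values. Of the wider list, genes past the threshold were named. The orders of libraries and Pmel were chosen after values were seen. Marker lists covered RPE, endothelium, surface epithelium, rods, cones, inner retina and Müller glia, fibroblasts, Schwann cells, macrophages and muscle. Sums of inner retina and Müller glia markers ranged from 1108 to 3424 CPM in control and 1507 to 2535 CPM in Nrf2 eyes, of fibroblast markers from 85.3 to 593 and 196 to 923 CPM, and of macrophage markers from 92.5 to 285 and 95.1 to 307 CPM. Positions and exon lengths are from GENCODE M21 (GRCm38) and promoters from RefSeq. The 6 motifs searched on both strands were the antioxidant response core, the M-box, the OTX2 core, an E-box, AP-1 and the TATA element.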

Additional observations from a re-analysis of the deposited data

Results flagged for a closer look

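Each of the 39 members was examined in both groups for a library set apart from its group, 78 groups in all. There were 5 such libraries, where chance, at 1 in 20, gives about 4. In 3 of them the far value was that of the library labelled Nrf2 4: it was the highest Nrf2 library in Cldn2 (106 CPM, with 40.2 CPM as the next) and in Tjp1 (85.6 CPM, with 56.3 CPM as the next), and the lowest in Mpp5 (54.5 CPM, with 82.5 CPM as the next). The others were Nrf2 2 as the highest in Jam2 (30.5 CPM, with 19.1 CPM as the next) and control 5 as the lowest control library in Cldn1 (235 CPM, with 453 CPM as the next).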

How the results depend on the processing

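The count of members past the threshold was 3. It was 5 without the replicate block for mouse, 7 with DESeq2, 9 with voom, 5 at an adjusted p under 0.10 and 5 without mice 3 and 4, and with 1 mouse left out it ranged from 0 to 18. For the wider list the count was 4, and it was 2 with no filter, 15 with DESeq2, 15 with voom, 8 at 0.10, 9 without mice 3 and 4 and from 1 to 35 with 1 mouse left out. Over all genes it was 559, and it was 1100 without the block, 1901 with DESeq2, 2590 with voom, 347 with no filter, 1030 at 0.10, 231 with the surface epithelium term and from 111 to 1998 with 1 mouse left out. The split of 479 higher and 80 lower became 978 and 1020 without mouse 4, 1585 and 1005 with voom, 1213 and 688 with DESeq2 and 492 and 253 without mice 3 and 4. The fit without the block also called Ezr and Jam3. Cldn2 kept its direction in every fit and passed in all but the one without mouse 1.

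Signs reversed in members that had not passed. With the surface epithelium term the estimates became 0.072 (Cdh1), 0.01 (Ctnnd1), 0.12 (Jup), -0.13 (Nectin3), 0.39 (Tjp3), 0.25 (Ocln), 0.061 (Marveld2), 0.28 (Marveld3), 0.088 (F11r), 0.047 (Gjb2), 0.025 (Pard3), 0.092 (Prkci), 0.04 (Rdx) and 0.12 (Vcl). Cdh2 ranged from -0.361 to 0.103 with 1 mouse left out, with 0.033 without mouse 4, and was 0.027 without mice 3 and 4. Nectin3 went to -0.056 without the block, -0.038 without mouse 3, -0.252 without mouse 6 and -0.012 without mice 3 and 4. With 1 mouse left out Cldn5 ranged from -0.568 to 0.018 (without mouse 5) and Crb1 from -1.158 to 0.052 (without mouse 5), with 0.044 without mouse 1. Gja1 was -0.045 with voom and -0.102 without mouse 6. Why these settings differ was not tested, apart from the fewer mice in fits that leave mice out. Counts were lowest in scarce genes, such as 1 count of Cldn19 in control 6, and after amplification reads are not independent molecules, so that the part of counting error in the spread was not measured. The 7 mice share a design in which the sequencing run of each library is not given.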
